A study of Homo sapiens with 6 samples.

Results

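The genes described here build, branch, elongate, cut and bundle actin filaments: the Arp2/3 complex and its activators, the formins, Ena/VASP proteins, profilins, the cofilin family with its kinases and phosphatases, capping proteins, coronins, filament bundlers and the GTPases RAC1, RHOA and CDC42. They were chosen by name, 46 genes in all, and 45 of them had at least 1 probe set naming no other gene, out of 19775 genes measured. ACTR2 was not analysed here. The arrays hold RNA of MDA-MB-231, an invasive, triple-negative human breast cancer cell line. Cells of the knockdown group carried a stable pLKO.1 lentiviral short hairpin against ATAD3A, an ATPase of the inner mitochondrial membrane, and control cells the same vector with a hairpin against GFP (3 arrays each). Both groups had been selected in puromycin at 1.0 µg/ml for 2 weeks and were used at passage 2. The labels name no clone and do not say whether the arrays come from separate cultures, so the spread behind each p-value may be technical only. In such bulk RNA, fewer cells of a type and less RNA per cell cannot be told apart. All levels are log2 expression values of 1 array, and all changes are the knockdown mean minus the control mean on that scale. Of several probe sets of a gene, the one with the highest mean was used unless stated.

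New actin filaments start from nucleators. The Arp2/3 complex, switched on by WASP and WAVE family proteins under CDC42 and RAC1, grows branches from the side of an existing filament and drives the broad protrusions of crawling cells, while formins, many of them opened by small GTPases, stay on the growing end and make long unbranched filaments. Profilin feeds them actin monomers and Ena/VASP proteins keep ends growing. Cofilin cuts old filaments; LIM kinases switch it off by phosphorylation and slingshot phosphatases switch it on again.

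Of the 45 genes, 15 were higher and 9 lower in the knockdown by limma at an adjusted p below 0.05, which is 53.3% against 33.6% of all genes tested (19.7% higher and 13.9% lower). Most of these genes are well expressed, and among genes outside the low mode of the values, where little signal is held, 23 of 41 (56.1%) were called against 62% of all such genes, so their share lies near the background. The upper edge of the low mode, 4.679, was read from the shape of the distribution. The median change was 0.027, against -0.00084 over all genes. Outside the low mode it was 0.0275, against 0.065 over all such genes. In 26 of the 45 (57.8%) the 3 knockdown arrays lay wholly above or wholly below the 3 control arrays, against 42% of all genes. Outside the low mode, 15 of the 41 lay wholly above and 10 wholly below. Of all 10404 such genes, 4393 and 3092 did, so the share of the listed genes was not above the background. Called changes of at least 0.5 were found for 10 genes (22.2% of those measured, against 16.6% of all genes): PFN2, ENAH, EVL and CTTN upward, and DIAPH2, SSH1, PLS3, FMNL3, CDC42 and FSCN1 downward. Outside the low mode these were 10 of 41, against 3166 of 10385 genes with a neighbour median, a measure explained further on. That share was not above the background either. Changes of at least 2-fold were found for PFN2 and DIAPH2 only, 2 of the 45, where the background was 5.82% of all genes. Outside the low mode the background was 1097 of 10404 genes. Of the 24 called genes, 17 changed by less than 1.5-fold, CTTN, FSCN1 and CDC42 among them.

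**Figure D1:**
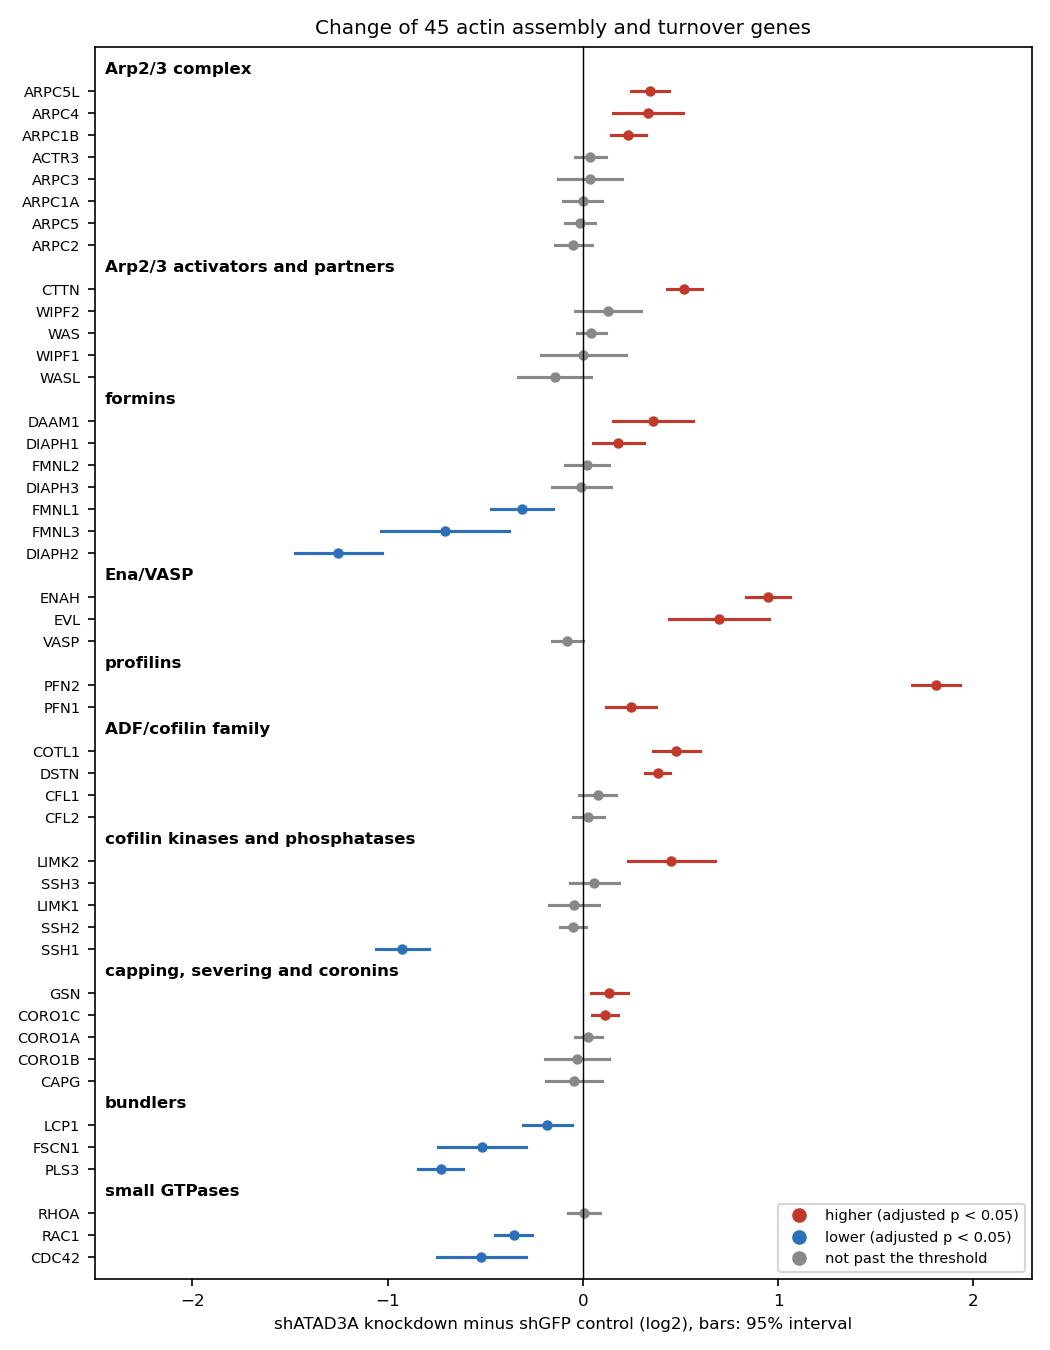
Change of each of the 45 measured genes (knockdown minus control, log2, with its 95% interval from limma), grouped by role; red genes were higher and blue genes lower at an adjusted p below 0.05, and grey genes did not pass. PFN2 stands at 1.81 and DIAPH2 at -1.25, while all 8 measured Arp2/3 subunits lie between -0.050 and 0.34.

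The promoters of 4 genes with large changes are printed because these genes differ in how their surroundings on the chromosome moved, as described further on: ENAH and SSH1 moved apart from their neighbours, DIAPH2 and PLS3 together with them. Each run is the 250 bases before the annotated start, read 5′ to 3′ on the strand of the gene, from RefSeq on GRCh38.p14. The capitals mark GC boxes (GGGCGG, or CCGCCC on the other strand), the letters bound by SP and KLF factors. ENAH is at chr1:225653124-225653373 on the minus strand, SSH1 at chr12:108857584-108857833 on the minus strand, DIAPH2 at chrX:96684592-96684841 on the plus strand and PLS3 at chrX:115560924-115561173 on the plus strand. SSH1 and PLS3 have 2 entries each, of which the one farther upstream is shown.
ENAH: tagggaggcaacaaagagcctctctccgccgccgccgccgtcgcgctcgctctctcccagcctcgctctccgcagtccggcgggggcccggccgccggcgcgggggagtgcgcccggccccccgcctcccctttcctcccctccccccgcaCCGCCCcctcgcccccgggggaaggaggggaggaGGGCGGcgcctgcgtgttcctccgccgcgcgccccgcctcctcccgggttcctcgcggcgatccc
SSH1: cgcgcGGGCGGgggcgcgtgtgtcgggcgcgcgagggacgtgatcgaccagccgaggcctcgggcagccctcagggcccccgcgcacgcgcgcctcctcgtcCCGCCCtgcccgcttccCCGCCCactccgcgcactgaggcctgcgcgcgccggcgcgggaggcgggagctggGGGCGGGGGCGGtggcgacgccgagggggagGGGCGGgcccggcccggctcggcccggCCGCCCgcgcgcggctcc
DIAPH2: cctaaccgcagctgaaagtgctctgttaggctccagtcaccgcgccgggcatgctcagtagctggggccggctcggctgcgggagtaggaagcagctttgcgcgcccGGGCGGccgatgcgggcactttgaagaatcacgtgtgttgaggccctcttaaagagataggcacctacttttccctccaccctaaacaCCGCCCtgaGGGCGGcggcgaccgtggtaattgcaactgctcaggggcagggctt
PLS3: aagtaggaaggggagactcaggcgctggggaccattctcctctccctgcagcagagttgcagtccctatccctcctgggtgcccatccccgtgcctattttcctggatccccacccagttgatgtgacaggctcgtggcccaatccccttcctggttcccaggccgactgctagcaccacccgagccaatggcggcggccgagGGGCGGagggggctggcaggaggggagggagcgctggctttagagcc
The SSH1 window holds 7 GC boxes, the DIAPH2 window 3, the ENAH window 2 and the PLS3 window 1. Among the 41 listed genes with an entry, 38 had a GC box in at least 1 window. It was found for 75.8% of 8647 genes above the low mode and 62.3% of the 15384 tested genes searched. Entries on 1 chromosome were left out of the search. All 12 called-higher genes and all 7 called-lower genes with an entry had a GC box, so its presence did not separate the directions. The CArG box of serum response factor was in 0 of the 41, against 1.55% of the 15384 genes searched. The TEAD motif GGAATG (or CATTCC) was in 2, DIAPH3 and PFN1, against 13.6%. A match is a description of letters in this window and no evidence of binding.

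Within the Arp2/3 complex, 3 of 8 measured subunits rose, 0 fell and 5 did not pass, with a median change of 0.036. All 8 lay outside the low mode, and 37.5% of them were called, against 62% of all such genes. The subunits that rose were ARPC5L, ARPC4 and ARPC1B, with changes of 0.34 ± 0.040 (SE; limma adjusted p = 0.000971), 0.33 ± 0.072 (SE; adjusted p = 0.01384) and 0.23 ± 0.036 (SE; adjusted p = 0.003384). ARPC5L and ARPC1B are the alternative forms of ARPC5 and ARPC1A, which changed by -0.014 and -0.0017 and did not pass. ARPC2, which with ARPC4 forms the structural core, read 14.55, 14.51 and 14.51 in control and 14.46, 14.54 and 14.42 in knockdown. The actin-related subunit ACTR3 read 14.15, 14.08 and 14.08 in control and 14.12, 14.15 and 14.15 in knockdown. For both genes the groups overlapped, and the 95% intervals of the change ran from -0.15 to 0.05 for ARPC2 and from -0.04 to 0.12 for ACTR3. On another ARPC2 probe set, with a control mean of 12.26, the gene was higher by 0.25 (adjusted p = 0.000931), and dimmer ACTR3 probe sets are taken up further on. ARPC3 changed by 0.035 (adjusted p = 0.8328). Without s_at and x_at probe sets, a group of less specific ones, ARPC5L gave 0.23 (adjusted p = 0.05035). A probe set shared by ARPC4 and the ARPC4-TTLL3 readthrough transcript gave 0.38 (adjusted p = 0.01644).

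Of the activators and their partners, CTTN rose and 4 did not pass, which is 20% called against 33.6% of all genes. CTTN, cortactin, which steadies Arp2/3 branches, read 11.81, 11.74 and 11.85 in control and 12.31, 12.33 and 12.32 in knockdown. Every knockdown array lay above every control array, and the rise was 0.52 ± 0.036 (SE; limma adjusted p = 0.000113). It rested on the brightest probe set: 3 dimmer CTTN probe sets gave between 0.12 and 0.16 and did not pass. WASL, the widely expressed N-WASP, changed by -0.14 (adjusted p = 0.2439), and the WASP-binding proteins WIPF1 and WIPF2 by 0.0019 and 0.13. WAS, the form found in blood cells, lay in the low mode at 3.29 in control and 3.34 in knockdown. So did CORO1A and LCP1, the coronin and plastin of leukocytes, and LIMK1. None of 9 measured leukocyte markers, PTPRC among them, was above the low mode in either group.

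The formins moved in both directions: 2 rose, 3 fell and 2 did not pass. That is 71.4% called, against 62% of all genes outside the low mode in at least 1 group. DIAPH2, a diaphanous formin, read 8.18, 8.33 and 8.28 in control and 6.97, 7.19 and 6.86 in knockdown. All knockdown arrays were lower by more than the spread within either group, a change of -1.25 ± 0.090 (SE; limma adjusted p = 0.0001344), and a second probe set gave -1.40. Its relative DIAPH1, an effector of RHOA, rose by 0.18 ± 0.052 (SE; adjusted p = 0.04192). That call held without control replicate 1 and was lost without any other single array (adjusted p between 0.08937 and 0.1309). It was also lost after quantile normalization (0.05128) or median centring (0.115), and with DIAPH1 probe sets averaged (0.7596). DIAPH3, found at filopodia and in dividing cells, changed by -0.0075 (adjusted p = 0.9705). A dimmer DIAPH3 probe set, at 8.73 in control, was called lower, with -0.26 (adjusted p = 0.03415). DAAM1, a formin of the planar polarity branch of WNT signalling, rose by 0.36 ± 0.083 (SE; adjusted p = 0.01861), an increase no longer called without knockdown replicate 1 (adjusted p = 0.06013).

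FMNL3, a formin-like protein, read 5.38, 4.88 and 4.999 in control and 4.29, 4.38 and 4.48 in knockdown, where it entered the low mode. The groups did not overlap, and the change of -0.71 ± 0.13 (SE; limma adjusted p = 0.007687) had the widest error of the 45 genes. The other FMNL3 probe sets, in the low mode in both groups, gave -0.16, -0.30 and -0.11 and did not pass. FMNL1, a formin-like protein mainly of blood cells, stood just above the low mode at 5.39 and fell by 0.31 (adjusted p = 0.01135). A second FMNL1 probe set, in the low mode, gave -0.19 and did not pass. FMNL2, the family member known from invading carcinoma cells, read 11.5 in both groups (change 0.022, adjusted p = 0.8533), but was called lower with its probe sets averaged (-0.12, adjusted p = 0.01358).

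The Ena/VASP family and the profilins held the largest increases. PFN2, the second profilin gene, read 9.93, 9.94 and 9.87 in control and 11.64, 11.73 and 11.80 in knockdown. The groups were far apart, by 1.81 ± 0.049 (SE; limma adjusted p = 4.359e-06), or 3.5-fold, seen on its 1 probe set. PFN1, the widespread profilin, read 12.65, 12.66 and 12.50 in control and 12.85, 12.88 and 12.82 in knockdown. Its rise of 0.25 ± 0.052 (SE; adjusted p = 0.01204) was larger than the spread of the arrays but small beside that of PFN2.

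ENAH, the Mena protein that lengthens filaments at the leading edge, read 10.80, 10.90 and 10.95 in control and 11.87, 11.79 and 11.83 in knockdown. Its groups did not overlap, with a rise of 0.95 ± 0.046 (SE; limma adjusted p = 3.019e-05), or 1.93-fold. Another probe set gave 0.96, and a dimmer one, at 6.398 in control, gave 0.28 (adjusted p = 0.1761); one more, in the low mode in control, gave 1.13 (adjusted p = 0.04105). EVL, a smaller member of the family, read 6.44, 6.43 and 6.30 in control and 7.08, 7.29 and 6.89 in knockdown. These groups did not overlap either, and the rise was 0.70 ± 0.10 (SE; adjusted p = 0.002908). A second EVL probe set, in the low mode, gave 0.065 (adjusted p = 0.2892), so the EVL call rests on 1 probe set. VASP changed by -0.080 (adjusted p = 0.1215), although its 3 knockdown arrays all lay just under the control arrays.

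**Figure D2:**
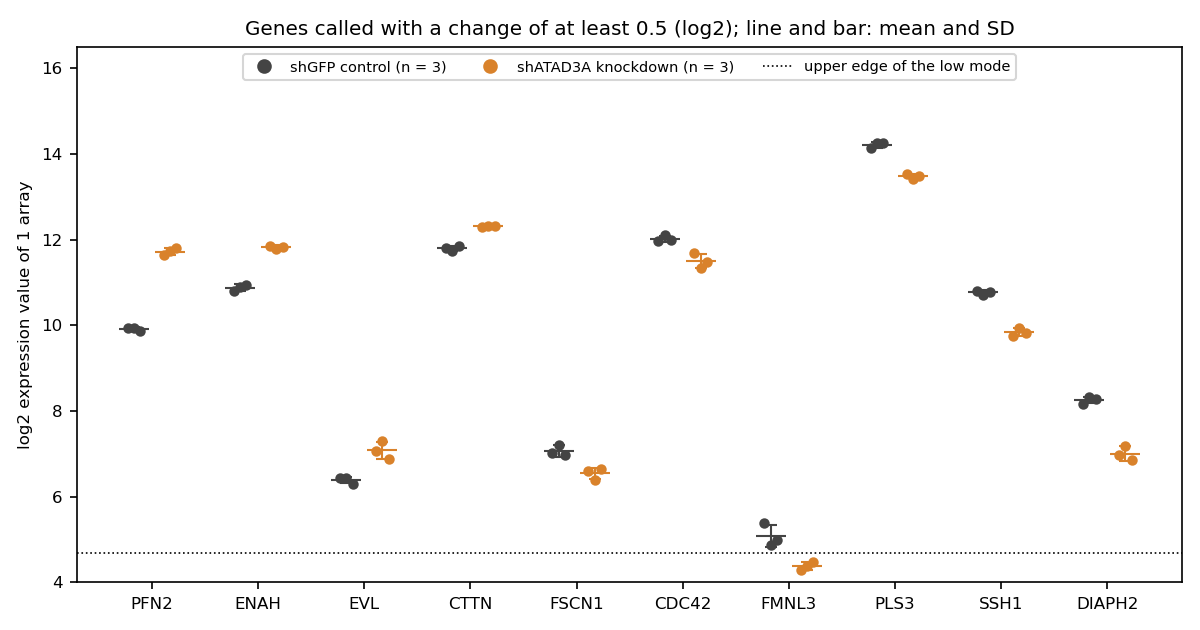
Values of each array (log2) for the 10 genes called with a change of at least 0.5, ordered by change, with control arrays in grey and knockdown arrays in orange (n = 3 each; line and bar are mean and SD). The groups do not overlap for any of the 10, and FMNL3 lies at the dotted upper edge of the low mode, 4.679.

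Among the genes grouped here as the cofilin family, 2 of 4 rose and none fell, while the regulators of cofilin moved apart. The called share of the family was 50%, against 62% of all genes outside the low mode. DSTN, destrin, rose by 0.38 ± 0.025 (SE; limma adjusted p = 9.743e-05) and COTL1, a cofilin-like actin-binding protein, by 0.48 ± 0.049 (SE; adjusted p = 0.000574). On probe sets with no s_at or x_at suffix DSTN gave 0.26 (adjusted p = 0.2129). That reading lay just above the low mode, at 4.70 in control, against 14.32 on the brightest probe set. CFL1, the main cofilin of non-muscle cells, read 14.15, 14.12 and 14.12 in control and 14.14, 14.27 and 14.20 in knockdown. These groups overlapped, and the 95% interval of the change ran from -0.02 to 0.17. CFL2 changed by 0.028 (adjusted p = 0.6833), with -0.22 on another of its probe sets (adjusted p = 0.01243).

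SSH1, the slingshot phosphatase that activates cofilin, read 10.81, 10.72 and 10.78 in control and 9.76, 9.95 and 9.83 in knockdown. The knockdown arrays were all lower, with a change of -0.93 ± 0.056 (SE; limma adjusted p = 6.688e-05), that is 0.527 times the control level, and a second probe set gave -1.22. The other slingshots, SSH2 and SSH3, changed by -0.052 and 0.057 and did not pass. LIMK2, a kinase that inactivates cofilin, rose by 0.45 ± 0.091 (SE; adjusted p = 0.00995), a call lost when probe sets were averaged (adjusted p = 0.05415). The messages of an activating phosphatase and of an inactivating kinase thus moved in opposite directions; phosphorylation itself was not measured.

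All 3 bundling genes were lower, where 13.9% of all genes were called lower, and 1 of the 3, LCP1, lay in the low mode. PLS3, plastin 3, read 14.14, 14.25 and 14.26 in control and 13.53, 13.43 and 13.50 in knockdown. All knockdown arrays were lower, with -0.73 ± 0.047 (SE; limma adjusted p = 8.625e-05). FSCN1, fascin, which packs filaments into filopodia and is known from invasive breast cancer cells, read 7.01, 7.22 and 6.97 in control and 6.61, 6.398 and 6.64 in knockdown. Its change was -0.52 ± 0.091 (SE; adjusted p = 0.00577), with no overlap between groups. LCP1 was called with -0.18 (adjusted p = 0.03643), but inside the low mode, at 2.14 in control, and was no longer called without control replicate 1 or 3 or knockdown replicate 1 or 2 (adjusted p up to 0.1077). Of the capping and severing proteins and coronins, GSN (gelsolin) and CORO1C passed with small increases of 0.14 (adjusted p = 0.03642) and 0.11 (adjusted p = 0.02102). GSN was still called without control replicate 1 and was lost without any other single array (adjusted p up to 0.1015). On probe sets with no s_at or x_at suffix GSN read -0.0079 (adjusted p = 0.9464). That reading was in the low mode, at 2.89 in both groups, and holds little signal. CORO1C was still called without control replicate 1 or knockdown replicate 1, and was lost without any of the other arrays (adjusted p up to 0.09023). A second CORO1C probe set, at 12.21 in control and 12.83 in knockdown, gave 0.62 (limma adjusted p = 0.000729). CAPG and CORO1B changed by -0.047 and -0.029 and did not pass.

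The GTPases that steer these machines differed from each other. RAC1 read 14.56, 14.53 and 14.53 in control and 14.15, 14.26 and 14.15 in knockdown, lower by more than the spread (-0.35 ± 0.039, SE; limma adjusted p = 0.0007221), and 2 other probe sets above the low mode gave -0.23 and -0.53. CDC42 read 11.97, 12.11 and 12.00 in control and 11.69, 11.35 and 11.47 in knockdown (change -0.52 ± 0.092, SE; adjusted p = 0.005905). The groups of RAC1 and of CDC42 did not overlap. Other CDC42 probe sets gave -0.20 (adjusted p = 0.004795), -0.57 (adjusted p = 0.0146) and -0.049 (adjusted p = 0.7633), so the size of its fall depends on the probe set. RHOA read 14.004, 13.92 and 13.94 in control and 13.94, 13.96 and 13.99 in knockdown. Those groups overlapped, with a 95% interval of the change from -0.08 to 0.09.

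Genes next to each other on a chromosome moved together in parts of this comparison, and the genes described here differed in this respect. For each gene the median change of the nearest genes above the low mode was taken, 25 on either side in GRCh38.p14 order (an analysis added after seeing the data). Around DIAPH2, on the X chromosome, that median was -1.01, and 47 of the 50 neighbours were called lower and 0 higher. Around PLS3, elsewhere on the X chromosome and with 0 neighbours in common with DIAPH2, it was -0.77, with 46 called lower and 2 higher. Around WAS, also on the X chromosome but itself in the low mode, it was -0.32, with 27 called lower and 6 higher. Neighbour medians as low as those of DIAPH2 and PLS3 were found for 0.135% and 0.838% of 10385 genes. Adjacent genes share most of their neighbours, so these shares do not count separate regions. DIAPH2 and PLS3 thus fell by about as much as the genes around them: 38% of the DIAPH2 neighbours and 58% of the PLS3 neighbours fell at least as far. With the neighbour median subtracted, DIAPH2 changed by -0.24 (adjusted p = 0.05071) and PLS3 by 0.041 (adjusted p = 0.5548).

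RAC1 and FSCN1, which share 43 neighbours on chromosome 7, had neighbour medians of -0.28 and -0.26, and DSTN one of 0.38. After subtraction RAC1 changed by -0.075 (adjusted p = 0.2431), DSTN by 0.0044 (adjusted p = 0.9387) and FSCN1 by -0.26 (adjusted p = 0.0383). The other large changes were not shared by the surroundings. Neighbour medians were 0.014 around PFN2, 0.077 around ENAH, 0.067 around EVL, 0.099 around SSH1 and 0.18 around CDC42. After subtraction these genes changed by 1.80, 0.87, 0.63, -1.02 and -0.71. CTTN kept 0.26 of its 0.52 after its neighbour median of 0.26 was subtracted. FMNL3 fell while the genes around it rose, with a median of 0.67. PFN1 rose by less than its neighbours (median 0.45) and changed by -0.21 after subtraction. ACTR3, ARPC2, RHOA, SSH2 and CORO1B, whose brightest probe sets were not called before subtraction, were called lower after it, with changes between -0.16 and -0.31. Subtraction treats the neighbour median as free of error, so its adjusted p-values are too small. What part the shared movement has in the falls of DIAPH2, PLS3 and RAC1 was not tested.

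**Figure D3:**
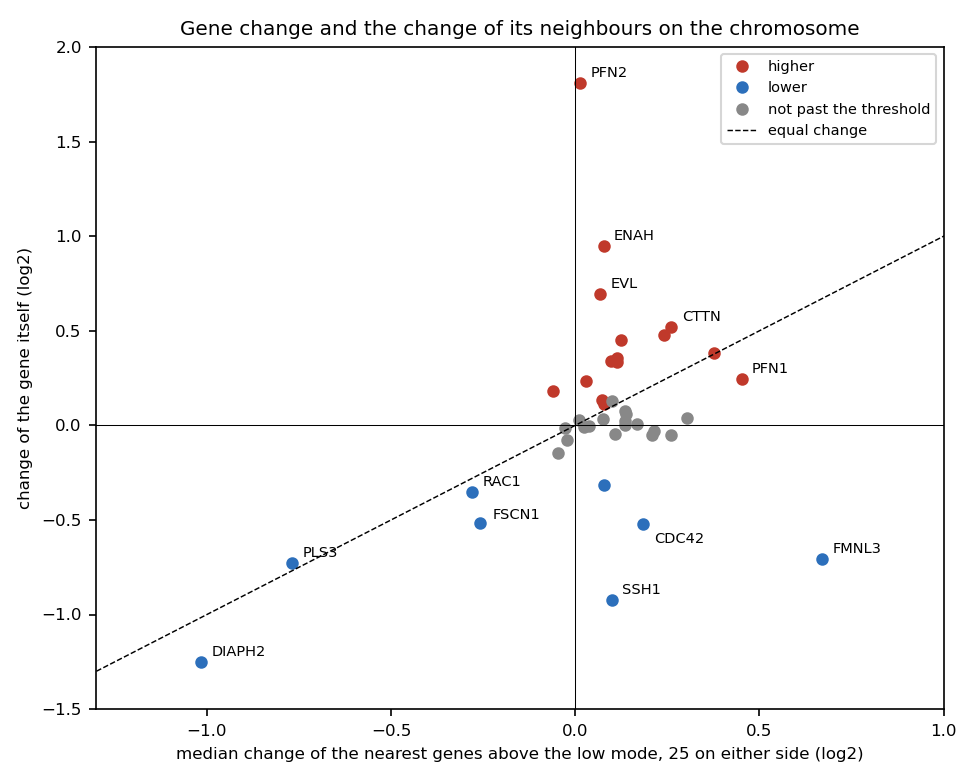
Change of each listed gene outside the low mode in at least 1 group (y axis, log2) against the median change of its nearest genes, 25 on either side (x axis, log2); on the dashed line both are equal. DIAPH2 and PLS3 lie near the line at -1.01 and -0.77 on the x axis, while PFN2, ENAH, EVL and SSH1 lie near 0 on that axis and far from the line.

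Probe sets of a gene did not always give the same answer. Beside the brightest ones there were 45 further probe sets above the low mode in at least 1 group, and 25 of them were called (14 higher and 11 lower, adjusted over all probe sets). That is 55.6%, near the 52.2% of all probe sets above the low mode in at least 1 group (22.4% of all probe sets, low mode included). Of these, 18 were called in the same direction as the call of the gene and 0 in the opposite direction. In 9 cases the dimmer probe set did not pass although the brightest did. In 7 cases it passed although the brightest did not, and the widest gap was at ACTR3. Its brightest probe set changed by 0.037, while another, at 8.92 in control and 7.49 in knockdown, changed by -1.44 ± 0.050 (SE; limma adjusted p = 2.75e-05). The remaining ACTR3 probe sets outside the low mode, at 13.24 and 13.37 in control, gave -0.16 and -0.20 and did not pass. With all ACTR3 probe sets averaged the gene was called lower (-0.34, adjusted p = 0.000106). CORO1C gave 0.11 on the brightest and 0.62 on the other. WIPF2 had 1 probe set with 0.25 and 1 with -0.57 beside the brightest, both called. Probe sets may read different transcript ends or forms of a gene, which was not examined here.

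**Figure D4:**
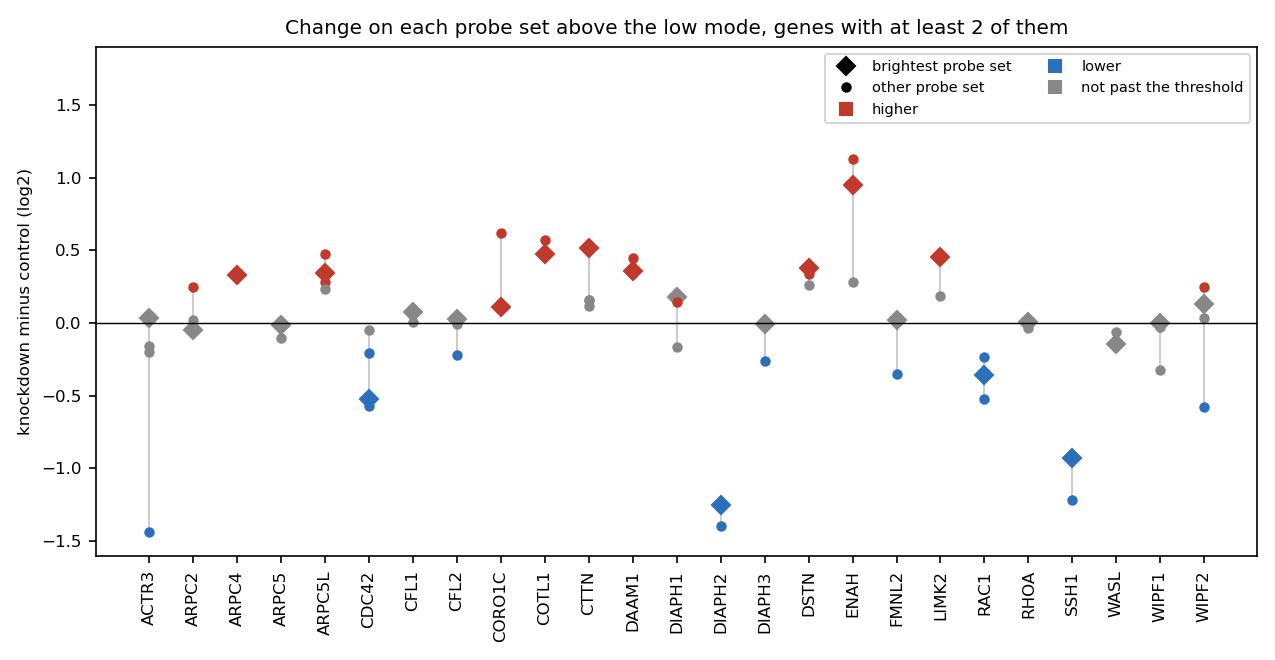
Change on every probe set above the low mode (log2), for genes with at least 2 of them; diamonds are the brightest probe sets, circles the others, and colours give calls adjusted over all probe sets, where DIAPH1 (adjusted p = 0.062) is not called. The vertical line at ACTR3 runs from 0.037 to -1.44, the widest spread shown.

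Related genes were compared within arrays, as the log2 difference between both genes on each array, in 18 fixed pairs. In 15 of them the 3 knockdown arrays lay wholly to one side of the 3 control arrays, which gives the smallest p an exact two-sided permutation test of 3 against 3 can reach, 0.1 (0.12 after adjustment over the 18 pairs), so no pair could pass 0.05. Of single genes, 42% did not overlap between groups. Outside the low mode, 4393 of 10404 single genes lay wholly above and 3092 wholly below. The share among other pairs was not computed. In 3 of the 15 pairs 1 gene lay in the low mode (WAS, LIMK1 or LCP1). The change of PFN2 exceeded that of PFN1 by 1.56 (SD of the within-array difference 0.055 in control and 0.10 in knockdown). The change of ENAH exceeded that of VASP by 1.03, and that of SSH3 that of SSH1 by 0.98. DIAPH2 fell while DIAPH1 was higher, and the change of DIAPH2 minus that of DIAPH1 was -1.43. Smaller differences were found between alternative Arp2/3 subunits, 0.36 for ARPC5L over ARPC5 and 0.23 for ARPC1B over ARPC1A. The groups overlapped for CFL2 and CFL1 (-0.048; exact permutation p = 0.4), WIPF2 and WIPF1 (0.13; p = 0.4) and CORO1C and CORO1B (0.14; p = 0.2).

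**Figure D5:**
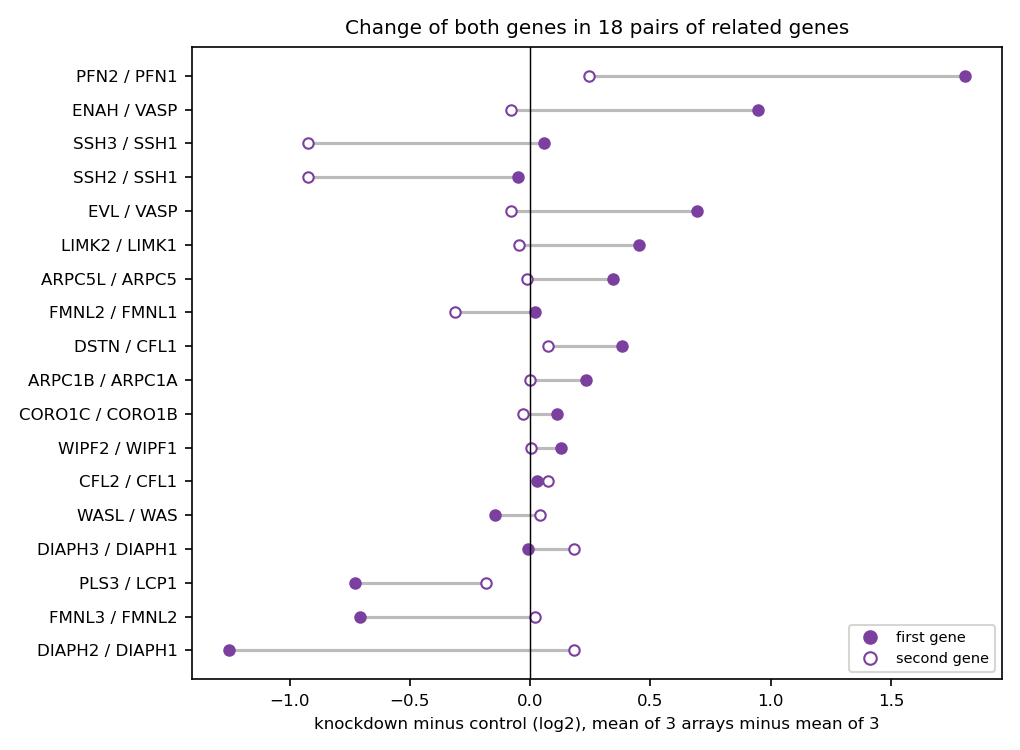
Change of both genes (log2, mean of 3 knockdown minus mean of 3 control arrays) in 18 pairs of related genes, filled for the first and open for the second gene named. The grey line is the difference in change, widest at PFN2 over PFN1 (1.56) and at DIAPH2 under DIAPH1 (-1.43).

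Around these genes, 154 further actin genes from 6 lists were measured, of which 38 rose and 36 fell, 48.1% against 33.6% of all genes. Among those outside the low mode, 37 of 116 rose and 36 fell, 62.9% against 62% of all such genes, so their share was near the background. Of 13 genes of the WAVE complex and its partners, 5 rose and 3 fell. CYRIA, of a family that binds RAC1 and restrains WAVE, went from 2.56 in the low mode to 8.35 (change 5.79), and BAIAP2 and CYFIP2 rose by 0.94 and 0.50. The WAVE subunits WASF2, WASF3 and ABI1 fell by 0.49, 0.42 and 0.39. Of 26 further Arp2/3 regulators and nucleators, 7 rose and 5 fell, with HIP1R, which links clathrin coats to actin, up by 1.40, the adaptor NCK2 up by 0.46, the nucleator JMY down (-0.98) and the Arp2/3 inhibitor ARPIN down (-0.42). Of 6 other formins, INF2 rose by 0.97 and FHOD3 fell by 1.63.

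Of 32 capping, severing and monomer-binding genes, 7 rose and 6 fell. EPS8, which caps and bundles filaments, rose by 0.92, with a neighbour median of 0.47. SCIN, a gelsolin relative, rose by 2.08 from the low mode, with a neighbour median of -0.47. CORO2B went down into the low mode (-2.85), and CAP2 fell by 0.62, with a neighbour median of -0.34. Of 35 actins, side-binding and crosslinking genes, 9 rose and 8 fell. TAGLN rose by 1.59, from 3.21 in the low mode to 4.80, and PDLIM4 and SYNPO rose by 1.01 and 0.91. PDLIM2, ANLN and TPM4 changed by -1.45, -0.76 and -0.67, with neighbour medians of -0.47, -0.42 and -0.50. Of 42 small GTPases, regulators and kinases, 9 rose and 13 fell. RHOB rose by 2.19 from just inside the low mode, and TESK1, which like LIM kinases phosphorylates cofilin, rose by 0.50. RHOJ, a relative of CDC42, went into the low mode (-2.58). The RAC activators moved apart, with TIAM1 up by 0.50 and TIAM2 down (-1.16). Around TIAM1 the neighbour median was -0.43. For the remaining genes named in this paragraph the neighbour medians lay between -0.025 and 0.16. The part of shared movement in these changes was not tested.

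In the series as a whole, 6644 of 19775 genes were called. ATAD3A itself was at 7.77 ± 0.038 in control and 7.28 ± 0.21 in knockdown (SD, n = 3; adjusted p = 0.01285 by limma), on an x_at probe set that may also read related transcripts. Array medians lay between 3.16 and 3.23. All 7 markers of mesenchymal MDA-MB-231 cells, VIM and CD44 among them, were above 10.9 in both groups, but 5 of them were called lower: ZEB1 (-0.45), CD44 (-0.34), AXL (-0.26), CAV1 (-0.25) and LGALS1 (-0.20). ESR1 and PGR were in the low mode. ERBB2 rose from 7.80 in control to 8.31 in knockdown (adjusted p = 0.002513 by limma). Above the low mode were 0 of 5 muscle markers, 1 of 7 fibroblast markers (COL1A1) and 1 of 4 endothelial markers (PECAM1). COL1A1 rose by 1.01 (adjusted p = 0.0001164 by limma), while PECAM1 fell by 1.27 (adjusted p = 0.00737). The part of these marker changes in the results above was not tested.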

How the data were processed

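RNA (250 ng per sample) was labelled with biotin by a 3' in vitro transcription kit and hybridised to U133 Plus 2.0 arrays, per the labels' protocols. The range of the deposited values fits log2, the scale used; how the authors summarised probes and corrected background is not given in the sources used here. The software Partek is listed, with no version, per the submitters' processing notes. The platform annotation gave 41091 of the 54675 probe sets a single symbol, 1801 several symbols and 11721 none, beside 62 controls, which were left out. The brightest single-symbol probe set, by mean over all arrays, stood for its gene, and no filter was used. Groups were compared over all 19775 genes with limma 3.58.1 in R 4.3.3 (lmFit, eBayes, two-sided, no covariates); adjusted p-values (Benjamini-Hochberg) below 0.05 were called. The fit was tested on simulated data. Probe sets were fitted separately over all 54613. The number of arrays limits the precision.

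Named were all listed genes, ATAD3A, and from each list of other actin genes up to 3 called genes per direction with the largest changes and no overlap between groups; not all of these are printed. Values on every array are given for called genes with a change of at least 0.5 and for ARPC2, ACTR3, PFN1, CFL1, RAC1 and RHOA. The members and lists were chosen with earlier results of these data known. Alternatives covered normalization, filters on dim genes, the probe set per gene, variance prior, array weights, threshold, the replicate block and leaving out each array. Removal of the neighbour median was added after seeing the data. Promoter windows and motif matches were taken from RefSeq tables with Python 3.11.15.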

Additional observations from a re-analysis of the deposited data

How the results depend on the processing

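Of the 24 called genes, 12 were called under each of the 17 alternatives that measured them: ARPC1B, CDC42, COTL1, CTTN, DIAPH2, ENAH, FMNL3, FSCN1, PFN2, PLS3, RAC1 and SSH1. Removal of the neighbour median is not among the 17; under it DIAPH2 (adjusted p = 0.05071), PLS3 (0.5548) and RAC1 (0.2431) were not called. In the 6 fits without 1 array, 19 of the 24 were called in each; 12 to 15 were higher and 8 to 9 lower. The count of higher genes went from 15 to 9 when s_at and x_at probe sets were dropped (PFN2 and, among lower genes, FSCN1 were then not measured, and ARPC5L, DIAPH1, DSTN, EVL and GSN lost their call) and to 9 at a threshold of 0.01, where ATAD3A (-0.49, adjusted p = 0.01285) was no longer called. With those dropped, DIAPH1 read -0.023 (adjusted p = 0.9187) and GSN -0.0079 (adjusted p = 0.9464), and the DIAPH3 to DIAPH1 difference 0.015. The DIAPH1, GSN and EVL probe sets then used were in the low mode in both groups, so these values hold little signal. With probe sets averaged, ACTR3 read -0.34 (adjusted p = 0.000106) and FMNL2 -0.12 (adjusted p = 0.01358), both now called lower. Among the other probe sets, 14 were called higher and 11 lower; centring on medians gave 9 higher, the threshold of 0.01 gave 8 and 6, the replicate block 9, and leaving out 1 array 9 to 14. With the neighbour median removed ACTR3 read -0.27, PFN1 -0.21, PLS3 0.041 and RHOA -0.16.

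Replicate numbers are shared by the groups but did not pair the arrays: same-numbered deviations correlated at -0.24, -0.16 and 0.047, and 1 of 6 arrays correlated best with its own number. The replicate block gave 11 higher and 8 lower genes, with the calls of DIAPH1, DAAM1, GSN, CORO1C and LCP1 lost. Genes in or near the low mode hold little signal, which limits FMNL3, FMNL1, WAS, LIMK1, CORO1A and LCP1.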
